A study of Mus musculus with 6 samples.

Results

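Gene expression in mouse pancreatic islets late in the dark phase, at zeitgeber time (ZT) 20, was compared with that 4 h earlier, at ZT16, using 2 of the 6 arrays of a series that covered the day. Islets are clusters of hormone-secreting cells within the pancreas, surrounded by acinar cells that make digestive enzymes. The mice were C57BL6 males, 8 weeks old and fed chow, with 12 h of light from ZT0 and 12 h of dark from ZT12, and the islets were freed with collagenase. Each pool held RNA of 3 to 5 mice and was read on 1 single-colour Agilent array. With 1 pool on each side there was no replicate and no test was made, so each difference describes these 2 pools and not the spread between mice. Probes flagged well above background on either or both arrays were kept, and each gene was taken from its probe of highest mean signal. This gave 25007 genes, 22815 of them above background on both arrays, 384 at ZT16 only and 1808 at ZT20 only.

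Levels are log2 of the processed signal relative to the 75th percentile of the array, and differences are ZT20 minus ZT16 on that scale, so that a difference of 1 is 2-fold. A gene was counted as higher or lower at 2-fold or more. Both arrays came from the same slide and scan, had 70.8% (ZT16) and 75.3% (ZT20) of spots well above background and no saturated spot. Among 336 probes printed 10 times, the standard deviation of a difference between single spots had a median of 0.0945, and of 0.181 in the dimmer 168 of them; it covers spot error only. Islet hormone genes were bright on both arrays, with Ins2 at 7.60 and 7.50. Of the 15 pairs of arrays in the series this pair was the most alike: Pearson's r across probes was 0.955, and 11.1% of probes were 2-fold apart, against 23.9% for the next pair, ZT8 and ZT20.

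Hepatocytes secrete most plasma proteins, carry the urea cycle and detoxifying cytochromes P450, and in mice make the major urinary proteins, which bind pheromones. Islet endocrine cells secrete insulin, glucagon, somatostatin and pancreatic polypeptide from dense-core granules. The circadian clock of both tissues is a loop in which BMAL1 (Arntl) and CLOCK activate the Per, Cry and Rev-erb genes, whose products repress them, with RORs and REV-ERBs acting on Arntl itself. DBP, TEF and HLF, which follow the clock, bind D-box elements; DBP was named for the D site of the albumin promoter.

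The 2 pools were alike in most genes and far apart in a set of liver transcripts. Of all genes, 1985 (7.94%) were at least 2-fold higher at ZT20, 808 (3.23%) were at least 2-fold lower, and 88.8% lay within 2-fold. The 1985 were 71.1% of all genes past 2-fold; this share was 53.1% when each array was centred on its median, a scaling that moved the median difference of all genes from -0.02 to -0.24. It was 60.3% after quantile normalization of both arrays, 59.4% with all 6 arrays and 56.6% in the authors' value table. Among the 6252 dimmest genes 1033 were higher and 286 lower, whereas among the 6252 brightest these numbers were 111 and 130. Past 16-fold, 192 genes (0.768%) were higher and 31 lower, and 54 of the 192 (28.1%) belonged to 3 lists of hepatocyte genes: plasma proteins, enzymes and transporters, and major urinary proteins. These 54 include genes above background at ZT20 alone, such as Fabp1 and Serpina3k, which had to be higher and add no support. Among members above background on both arrays, 24 of 26, 23 of 28 and 8 of 8 were at least 2-fold higher, against 4.9% of all such genes. In contrast, 329 of the 353 measured endocrine, clock and metabolic genes (93.2%) lay within 2-fold.

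**Figure D1:**
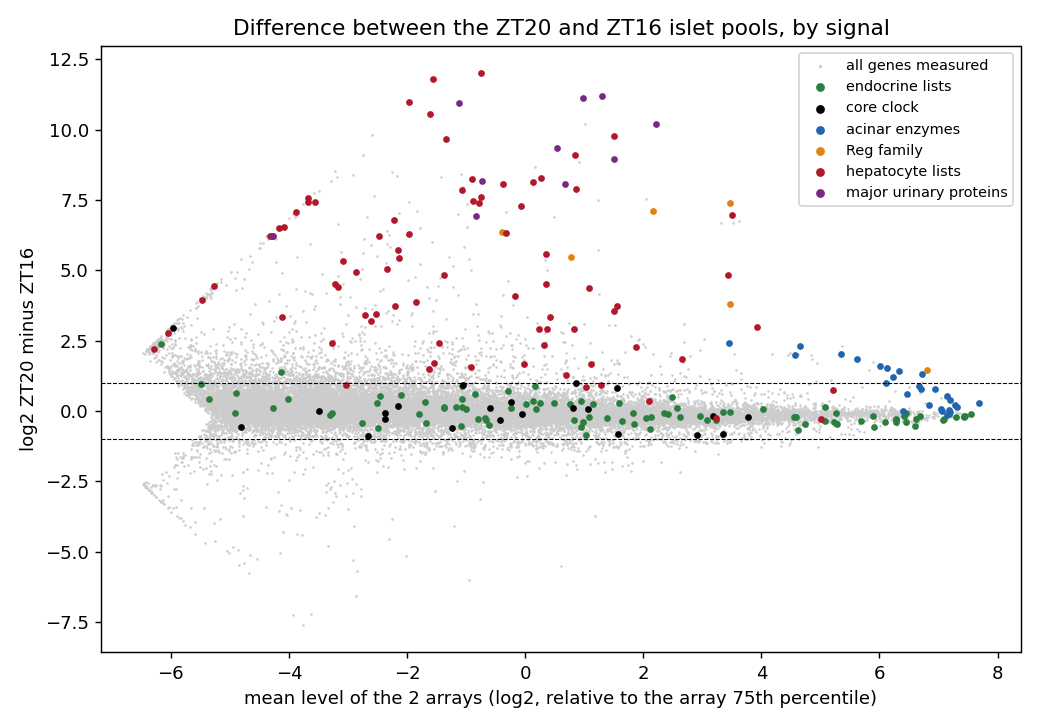
Difference between the ZT20 and ZT16 arrays (log2, vertical axis) against the mean level of the 2 arrays (log2 relative to the 75th percentile, horizontal axis), 1 point per gene. Grey points are the 25007 genes, coloured points are members of the named lists, and dashed lines mark 2-fold; hepatocyte genes and major urinary proteins reach differences of 12.00 and 11.19, while endocrine and clock genes lie mostly between the dashed lines.

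Hepatocyte transcripts were dim at ZT16 and bright at ZT20. Alb, which encodes albumin, stood at -3.37 at ZT16 and 6.40 at ZT20, an 873-fold difference. Kng1, the precursor of bradykinin, stood at -3.72 and 3.59 (159-fold), and Bhmt, which remethylates homocysteine with betaine, at -3.93 and 4.21 (282-fold). These are the 3 genes that mark hepatocytes here, and on the other 4 arrays Alb ranged from -5.34 to -3.14, Kng1 from -4.84 to -3.77 and Bhmt from -4.03 to -2.22. None of the 3 was above -2.22 on an array other than ZT20. The second probe of Kng1 gave a difference of 6.02, and the 3 probes of Bhmt gave 8.01 to 10.51. In pooled tissue, fewer cells of a type and less RNA per cell cannot be told apart.

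Of 40 plasma protein genes, 39 had a probe and were measured. Of the 26 above background on both arrays, 24 were at least 2-fold higher at ZT20 and none lower, with a median difference of 4.93; of all genes above background on both arrays, 4.9% were as much higher. The other 13 were kept because they were above background at ZT20 alone, so they had to be higher there and add no support. Their fold is a bound, taken against the lowest signal called above background at ZT16, and it was under 2-fold for C9, a complement component (1.43-fold). All 39 together had 37 past 2-fold and a median of 5.04. Members above background on both arrays included Ahsg, the carrier fetuin-A, at -3.70 and 5.38 (545-fold), Fgb, the beta chain of fibrinogen, at -4.42 and 3.66 (271-fold), and Apoc3, which slows triglyceride clearance, at -3.08 and 4.81 (237-fold). Serpina3k, a serine protease inhibitor, was at least 415-fold higher and Fgg, the gamma chain of fibrinogen, at least 408-fold. The 2 members within 2-fold were C8b, a complement component, with a difference of 0.35, and Rbp4, the plasma carrier of retinol, which was already at 4.84 at ZT16 and reached 5.59. ZT20 had the highest level of the 6 arrays for 38 of the 39, against 18.5% of all genes. For 8 of the 39 ZT16 had the lowest, against 10.6%, among them Serpina1a, an alpha-1-antitrypsin, which stood at 0.01 at ZT16, between 2.58 and 4.74 on the other 4 arrays, and 6.99 higher at ZT20 than at ZT16.

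The promoters of 2 members that differed together are shown for the regulatory letters they hold. They are the RefSeq promoter windows of GRCm38.p6 for Alb (chr5:90460620-90460919, plus strand) and Fgb (chr3:83049814-83050113, minus strand). Each spans 250 bases before to 50 bases after the annotated start and is written 5′ to 3′. Capitals mark matches, on either strand, to the D-box pattern TTNTGTAA, chosen with these windows in view; no matches overlapped.
Alb: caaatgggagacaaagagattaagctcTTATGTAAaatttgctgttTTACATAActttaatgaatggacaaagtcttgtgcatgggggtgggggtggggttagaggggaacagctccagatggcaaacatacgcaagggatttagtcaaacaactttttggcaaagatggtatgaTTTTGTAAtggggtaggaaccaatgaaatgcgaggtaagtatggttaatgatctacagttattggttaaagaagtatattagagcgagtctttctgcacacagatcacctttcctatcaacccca
Fgb: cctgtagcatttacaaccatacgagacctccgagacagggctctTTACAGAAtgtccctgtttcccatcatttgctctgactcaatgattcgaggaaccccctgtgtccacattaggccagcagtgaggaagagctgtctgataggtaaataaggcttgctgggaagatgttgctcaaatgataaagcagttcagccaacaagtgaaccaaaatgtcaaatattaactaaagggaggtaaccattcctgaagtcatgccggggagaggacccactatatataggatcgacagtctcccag
Counting the annotated start as 0, the D-box pattern began at -223, -204 and -75 in Alb and at -206 in Fgb. Of 59 genes of the plasma protein and enzyme lists with such a window, 4 held the pattern (Alb, Apoh, Fgb and Ugt2b1; 6.78%), against 4.03% of all 32851 windows, of which a gene may have several. A match describes letters only and says nothing of a factor bound there.

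Liver enzymes and transporters followed the plasma proteins. Of 28 above background on both arrays, 23 were higher and none lower, against 4.9% of all such genes, with a median difference of 3.07. The other 11 of the 39 measured were above background at ZT20 alone; with them 34 were past 2-fold and the median was 3.73. Among these 11 Cyp8b1, of bile acid synthesis, had no bound, since its level of -5.19 at ZT20 was below the lowest called above background at ZT16. Fabp1, the fatty acid binding protein of liver and gut, was at least 1379-fold higher, and the cytochromes P450 Cyp3a11 and Cyp2f2 were at least 738-fold and 461-fold higher. Fabp1 was lowest at ZT16 and lay between -2.94 and -0.34 on the other 4 arrays. ZT20 had the highest level of the 6 arrays for 34 of the 39, against 18.5% of all genes, and ZT16 the lowest for 6, against 10.6%. Ces3a, a carboxylesterase, stood at -5.02 and 3.23, a difference of 8.25. In the urea cycle, Cps1, which makes carbamoyl phosphate, differed by 3.44 and Arg1, the arginase of liver, by 2.43, while Otc, ornithine transcarbamylase, was at least 55.8-fold higher. The first step of bile acid synthesis from cholesterol, Cyp7a1, differed by 2.42. Within 2-fold lay Slc10a1, a bile acid transporter (-0.28, with 1.52 on its other probe), Upb1 (-0.25), Mat1a (0.85), Tat (0.92) and Cyp27a1 (0.94). Slc10a1 and Upb1 were the members of highest mean signal and were bright on both arrays, at 5.15 and 4.87 for Slc10a1.

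Genes of the major urinary proteins had the widest gap between the pools. Of 21 in the list, 10 had a probe under their symbol, and all 10 were higher at ZT20, 8 of them above background on both arrays, by a median of 9.15. Mup18 stood at -4.30 and 6.89, a 2335-fold difference, Mup17 at -4.59 and 6.54, and Mup19 at -2.88 and 7.33. Their levels summed, on the linear scale, to 0.61 times the 75th percentile at ZT16 and 537 times at ZT20, and to 0.54 to 1.60 times on the other 4 arrays. Several genes of this family are close copies, so a probe may read more than 1 of them and their differences cannot be counted as independent. How alike the 10 are was not checked. The summed level of the 39 plasma protein genes was 48.8 at ZT16 and 575 at ZT20, and that of the 39 enzymes 56.8 and 234.

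Genes listed for other cell types of the liver did not, as a list, differ to that extent. Krt19, Sox9 and Epcam of this list were also in the list of duct genes. Of 17 measured genes of Kupffer, sinusoidal, stellate and bile duct cells, 10 were higher, against 7.94% of all genes, and 2 lower. Of the 13 above background on both arrays, 6 were higher, against 4.9% of all such genes. Clec4f, Cd5l, Oit3 and Lrat were kept because they were above background at ZT20 alone, so they had to be higher. The median difference was 1.26, with a summed level of 4.82 at ZT16 and 6.43 at ZT20. This median was 0.77 after normexp background correction and 0.97 over members above background on both arrays. Clec4f, a lectin of Kupffer cells, was at least 5.03-fold higher, Cd5l, secreted by macrophages, at least 11.8-fold, and Clec4g, a sinusoidal lectin, stood at -3.85 and -0.66. Krt19, a bile duct and pancreatic duct keratin, was lower by 1.09, and Rgs5, a pericyte gene, by 2.06. ZT20 had the highest level of the 6 arrays for 3 of the 17 (Clec4f, Oit3 and Vsig4), against 18.5% of all genes. For 7 of the 17 ZT16 had the lowest, against 10.6%, among them Marco, at -2.29 and -0.91 but 6.17 at ZT4. Vsig4 stood at -4.05 and -1.56. Cd5l and Clec4g were higher still on the ZT4 array, at 2.65 and 1.25.

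**Figure D2:**
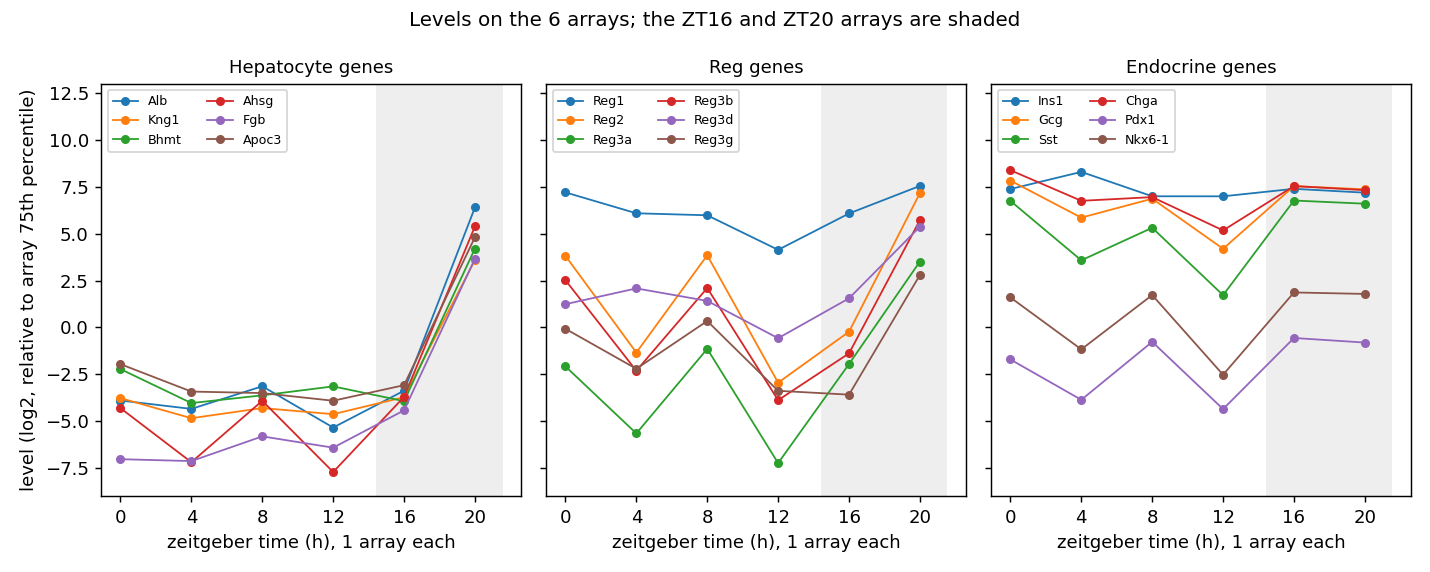
Levels (log2, relative to the 75th percentile of the array) on the 6 arrays, 1 array per zeitgeber time, for 6 hepatocyte genes, 6 Reg genes and 6 endocrine genes; the 2 arrays compared are shaded. Alb rises from -3.37 to 6.40 between the shaded arrays and Reg2 from -0.23 to 7.16, while Ins1 stands at 7.39 and 7.19.

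The Reg genes, which encode secreted lectins of acinar cells and of the gut lining, were the second group that stood far apart. All 6 that were measured were above background on both arrays and higher at ZT20, against 4.9% of all such genes. ZT20 was the highest of the 6 arrays for each, against 18.5% of all genes. Reg2 stood at -0.23 and 7.16 (168-fold), Reg3b at -1.38 and 5.72 (138-fold), and Reg3g at -3.58 and 2.80 (83.2-fold). Reg3a differed by 5.46, Reg3d by 3.82 and Reg1 by 1.47. The other 4 arrays also differed among themselves: Reg2 was at 3.82 at ZT0 and 3.85 at ZT8, but at -1.34 at ZT4 and -2.94 at ZT12. Reg4 was not well above background on either array.

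Acinar digestive enzymes were bright on both arrays, and 10 of 27 were higher at ZT20, with none lower and a median difference of 0.78. Of all genes above background on both arrays, as these 27 were, 4.9% were higher. The difference was larger for enzymes of lower signal. The ZT16 level is part of the difference, so members were split by their median over the other 4 arrays, at a level of 6 chosen after the values were seen. Of the 12 under 6, 10 were higher and the median was 1.57, whereas none of the 15 at 6 or more was higher and the median was 0.22. Over all genes, 1980 of 24546 under 6 were higher, with a median of -0.01. At 6 or more only 5 of all 461 genes were higher, with a median of -0.09, so few genes of that level were higher at all. Cuzd1, a zymogen granule protein, stood at 2.25 and 4.67 (5.35-fold), Pnliprp2, a lipase, at 3.49 and 5.82 (5.01-fold), and Spink1, the trypsin inhibitor, at 4.34 and 6.37 (4.08-fold). Pla2g1b, a phospholipase, differed by 2.01, Klk1, a kallikrein, by 1.85 and Rnase1 by 1.59. The enzymes of highest signal, Ctrb1 and Try5, differed by 0.30 and 0.15. Trypsins and elastases are families of close copies, and a probe may read more than 1 of them.

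**Figure D3:**
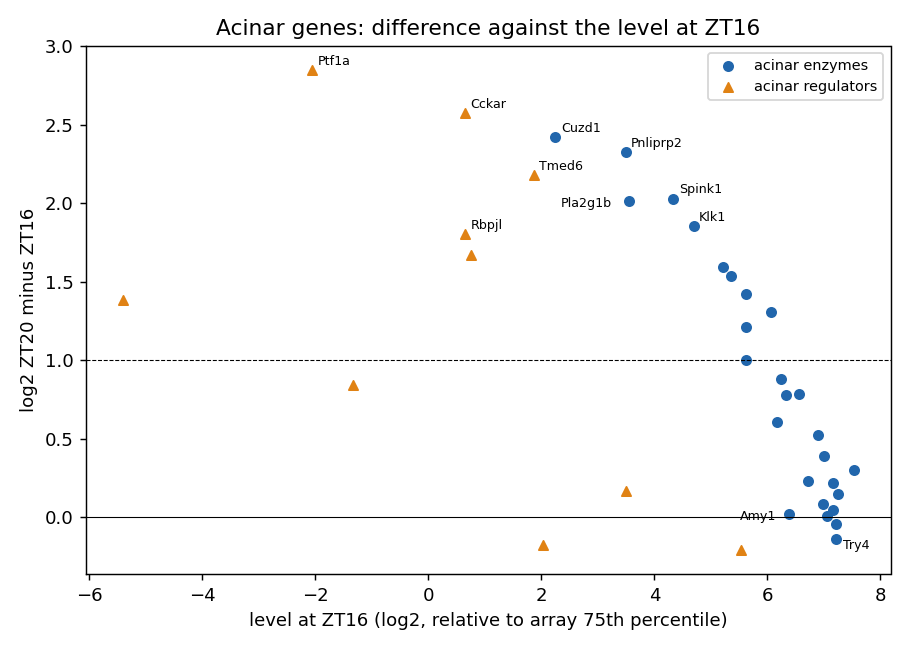
Difference between the ZT20 and ZT16 arrays (log2, vertical axis) against the level at ZT16 (log2 relative to the 75th percentile, horizontal axis) for 27 acinar enzymes (circles) and 10 acinar regulators (triangles); the dashed line marks 2-fold. The enzymes run from Cuzd1 (2.42) down to Try4 (-0.14) as the level at ZT16, which also enters the difference, rises.

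The list of acinar regulators held transcription factors and also other acinar genes, such as Cckar, Tmed6, Tmem97 and Rab3d. Of 10 measured, 6 were higher and none lower, with a median difference of 1.52, against 7.94% of all genes higher. Of the 9 above background on both arrays, 5 were higher, against 4.9% of all such genes. Nr5a2 was kept because it was above background at ZT20 alone, so it had to be higher. Ptf1a, the transcription factor that sets acinar fate, stood at -2.06 and 0.79 (7.21-fold), Cckar, the receptor through which cholecystokinin triggers enzyme release, at 0.64 and 3.22 (5.95-fold), and Tmed6, a secretory pathway protein, at 1.87 and 4.04 (4.53-fold). Among the other transcription factors, Rbpjl differed by 1.80, Gata4 by 0.84, Bhlha15 (MIST1) by 0.17 and Xbp1, which islet cells also express, by -0.21. Of 14 duct genes, all above background on both arrays, 3 were higher, against 4.9% of all such genes, and 1 was lower. Their median was 0.17, or -0.05 with median centring. Tff2, a trefoil peptide, stood at 3.46 and 5.45.

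Endocrine genes differed little between the pools, and 94 of 96 measured members lay within 2-fold, against 88.8% of all genes. That share depends on signal, and bright genes in general differed little. Of the 6252 brightest genes 1.8% were higher and 2.1% lower, and of the 6252 dimmest 16.5% and 4.6%. None of 25 genes of hormones and granule proteins was past 2-fold. Ins1 stood at 7.39 and 7.19, Ins2 at 7.60 and 7.50, Gcg, which encodes glucagon, at 7.54 and 7.36, and Sst, somatostatin, at 6.77 and 6.60. Ppy, pancreatic polypeptide, was 0.51 lower and Nnat, neuronatin, 0.84 lower (a difference of -0.84), the farthest of the list. The median of the list was -0.26 and was below 0 under all 11 alternative settings, from -0.49 to -0.08; with loess between the arrays Ins2 was at 0.09 and Gcg at 0.02. Over the 6252 brightest genes the median was -0.15.

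Among 25 islet transcription factors, 1 was higher: Foxa1, an opener of chromatin in islets and liver, at -4.83 and -3.44, a dim probe whose difference was 0.63 after normexp correction. Pdx1, which maintains beta cells and insulin transcription, stood at -0.56 and -0.81, Nkx6-1 at 1.87 and 1.79, and Mafa at 2.42 and 1.80. Hnf4a, which hepatocytes share, differed by 0.52. Of 24 glucose sensing and excitability genes, Rapgef4, a cAMP sensor, was the 1 counted, but it was below background at ZT16 and its bound was 1.16-fold. Abcc8, a subunit of the ATP-sensitive potassium channel, differed by -0.37. None of 22 vesicle fusion genes was past 2-fold, and their range was -0.66 to 0.89.

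**Figure D4:**
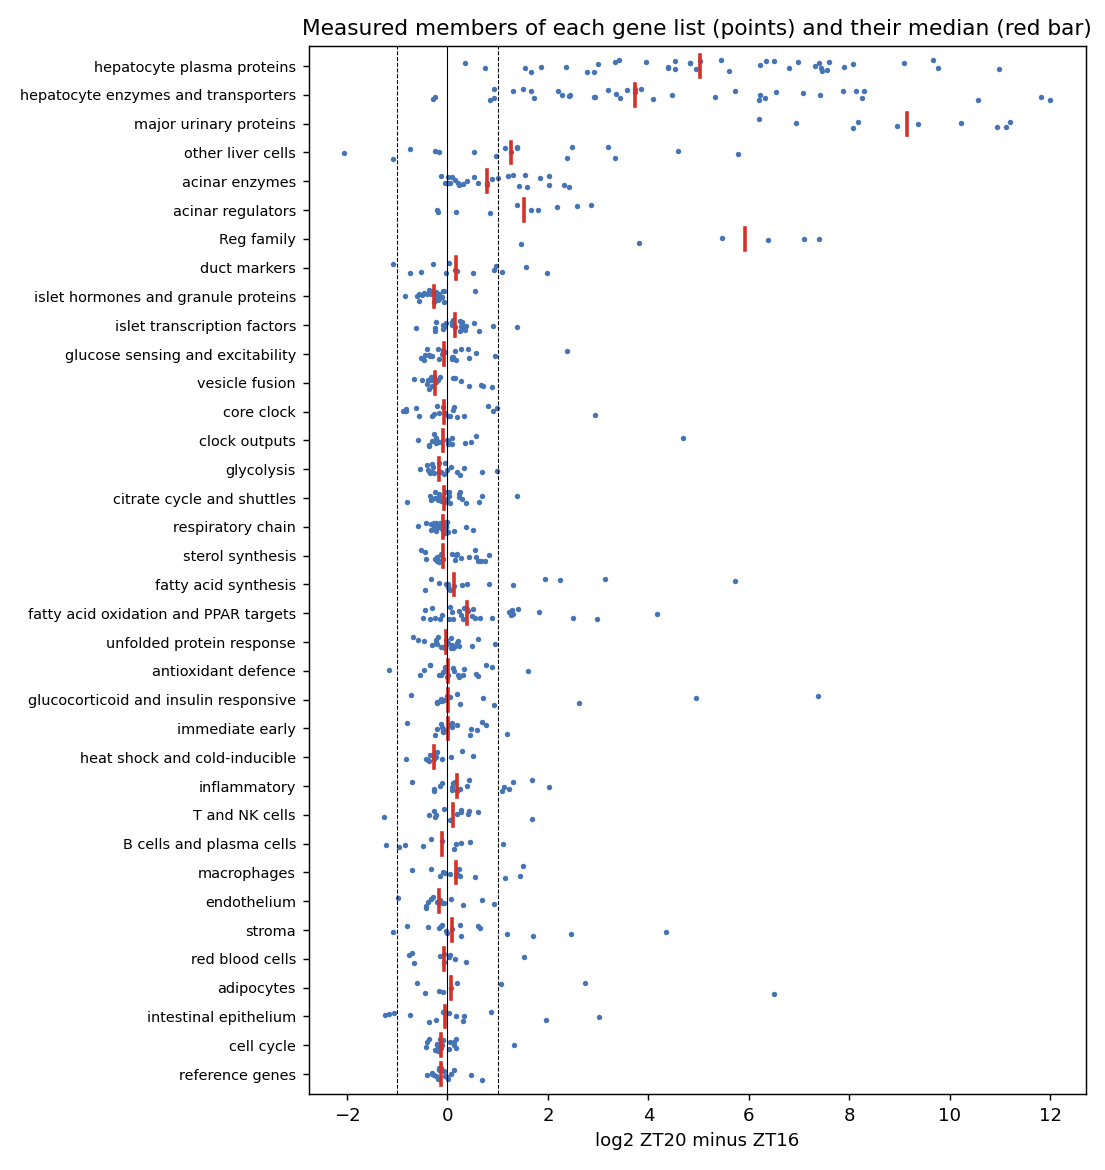
Differences between the ZT20 and ZT16 arrays (log2, horizontal axis) for the measured members of 36 gene lists, 1 point per gene; red bars are list medians and dashed lines mark 2-fold. The medians of major urinary proteins (9.15), Reg genes (5.92), plasma proteins (5.04) and hepatocyte enzymes (3.73) lie far to the right of 0, and 6 lists in all have medians past 2-fold.

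Clock genes differed by less than 2-fold in 37 of 39 measured core and output genes, against 88.8% of all genes. The lower cut of 1.5-fold gave another picture for the core genes. At that cut 9 of 22 core genes (40.9%) differed, 4 higher and 5 lower, and 2 of 18 outputs (11.1%). Of all 25007 genes, 3871 were higher and 1971 lower by 1.5-fold or more. Npas2 and Nr1d1 were not well above background on either array. On the activating side, Arntl stood at 0.37 and 1.37, a difference of 0.99 just under the limit, and its level was the highest of the 6 arrays at ZT20. The difference was over 1 after quantile normalization (1.05 and 1.12), with loess (1.09), in the authors' value table (1.12) and with the percentile over detected probes (1.06), and was 0.77 with median centring. Rora, an activator of Arntl, differed by 0.91 and Nfil3, which competes with DBP at D-boxes, by 0.82. Clock itself was at 0.75 and 0.87.

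The D-box activators and Per1 lay on the other side. Dbp stood at 1.98 and 1.16 (-0.83; -0.94 on its other probe), Tef at 3.34 and 2.50 (-0.84), and Per1, a repressor that also responds to acute signals, at 3.77 and 2.94 (-0.83). With median centring these 3 were past 2-fold, at -1.05, -1.06 and -1.05. ZT20 and ZT16 were the lowest arrays of the 6 for Dbp and Tef, while Per1 was at its highest at ZT16. Hlf, the third factor of that family, differed by -0.06.

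Of the other Per and Cry genes, Per2 stood at -0.01 and -0.10, Cry1 at -2.24 and -2.06, and Cry2 at 3.27 and 3.10, while Per3 differed by -0.56 and was not well above background at ZT20. Nr1d2, the REV-ERB beta gene, differed by -0.31. Rorb was lower by 0.89, and by 0.32 on its other probe, and passed 2-fold with median centring, quantile normalization, loess and in the authors' value table. The 1 core gene counted was Bhlhe41 (DEC2), a repressor, with a difference of 2.95, but it was below background at ZT16, its bound was 1.60-fold, and with no filter on dim probes another probe gave -0.25. Among 18 clock outputs Gys2, the glycogen synthase of liver, was at least 25.7-fold higher and the other 17 lay within 2-fold.

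**Figure D5:**
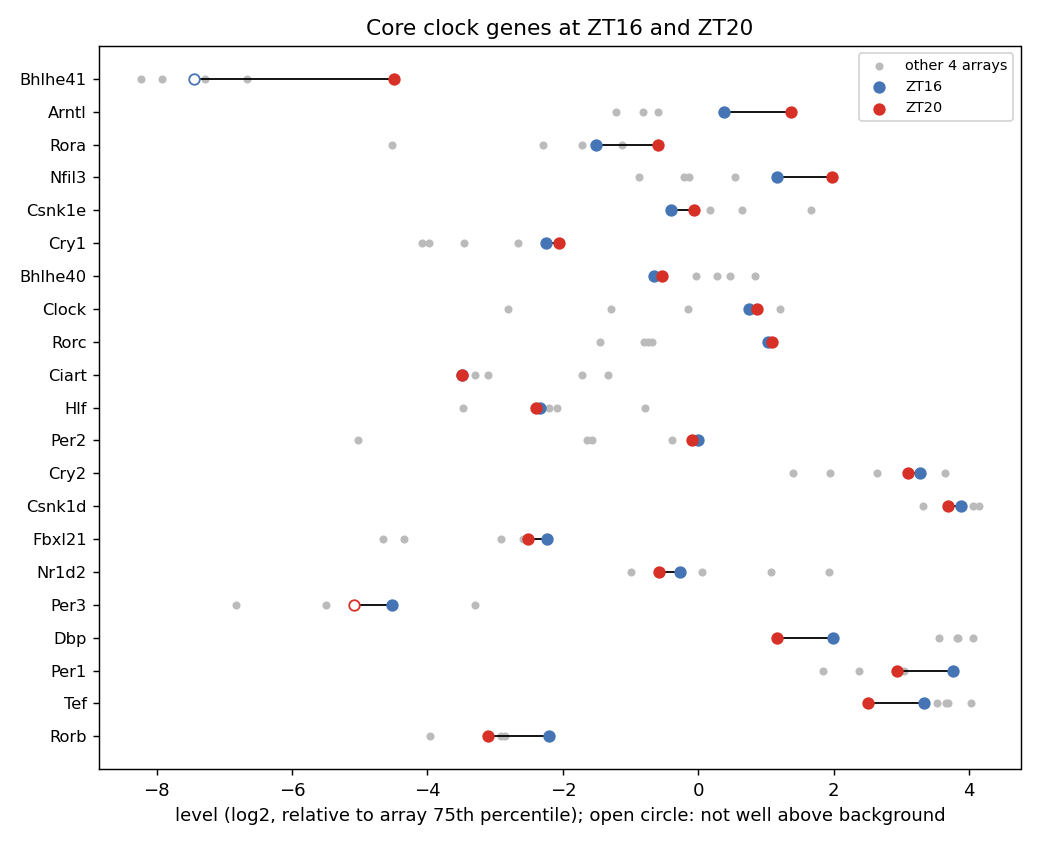
Levels (log2, relative to the 75th percentile of the array) of 21 core clock genes at ZT16 (blue) and ZT20 (red), joined by a line, with the other 4 arrays in grey; open circles were not well above background. Arntl, Rora and Nfil3 are higher at ZT20 by 0.82 to 0.99, Dbp, Tef and Per1 are lower by 0.83 to 0.84 (past 2-fold with median centring), and most other pairs nearly coincide.

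Metabolic genes were within 2-fold in 199 of 219 measured members, with 19 higher and 1 lower; the share within 2-fold was 90.9%, near the 88.8% of all genes, and the share higher 8.68%, near 7.94%. No gene of glycolysis (21), the respiratory chain (31), sterol synthesis (25) or the unfolded protein response (26) was past 2-fold. Most of the 20 past 2-fold act in lipid metabolism or answer to fasting and insulin. In fatty acid synthesis 5 of 17 were higher (4 of the 16 above background on both arrays, against 4.9% of all such genes). Scd1, the stearoyl-CoA desaturase, stood at -1.62 and 4.10 (52.9-fold), Thrsp (Spot 14) at -0.82 and 2.31 (8.79-fold) and Dgat2, which makes triglyceride, at -0.99 and 1.24 (4.70-fold). Acly and Mlxipl, the members of highest signal, differed by -0.33 and -0.45, and the list's median was 0.14, or -0.09 with median centring.

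In fatty acid oxidation and PPAR targets 9 of 31 were higher, against 7.94% of all genes, with a median of 0.39; 8 of them were among the 30 above background on both arrays. Fgf21, a fasting hormone of liver, stood at -4.21 and -1.72 (5.62-fold), and Plin5, a lipid droplet protein, was at least 12.5-fold higher. Of 16 glucocorticoid and insulin responsive genes, 3 were higher, against 7.94% of all genes, and the list's median was 0.02. Of the 14 above background on both arrays 1 was higher, against 4.9% of all such genes. It was G6pc, glucose-6-phosphatase, at -2.37 and 0.24 (6.11-fold). Pck1, the gluconeogenic carboxykinase, was at least 34.5-fold higher and Igfbp1, repressed by insulin in liver, at least 6.38-fold. Both were kept because they were above background at ZT20 alone, so they had to be higher. The members of highest signal, Mt1 and Mt2, differed by -0.21 and -0.12, and 8 of the 16 differences were below 0. Catalase (Cat) differed by 1.59. Hmox1, haem oxygenase, was the 1 metabolic gene counted as lower (-1.16), and the median over its 2 probes was near 0. Hepatocytes express most of the genes named here that were higher, and the hepatocyte markers differed between the same 2 arrays; their part in these differences was not tested.

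Of 119 measured markers of other cells, 18 were higher (15.1%, against 7.94% of all genes), 7 lower and 94 within 2-fold (79.0%, against 88.8%). Among stromal genes Cnn1, a smooth muscle calponin, stood at -4.59 and -0.23 (20.5-fold), Fn1, fibronectin, which hepatocytes also make, at -0.55 and 1.91, and Acta2 at 0.70 and 2.41, whereas Bgn, biglycan, was lower by 1.08. On the other 4 arrays Cnn1, Fn1 and Acta2 were higher than at ZT20, at no less than 0.80, 3.09 and 4.31. ZT16 had the lowest level of the 6 arrays for 9 of 17 stromal genes, against 10.6% of all genes. ZT20 had the highest for none of the 17, against 18.5%. Car3, a carbonic anhydrase of fat, muscle and liver, was at least 90.0-fold higher. Immune markers went both ways. Among 14 of T and NK cells, with a median of 0.12 (-0.10 with median centring), Ccl5, a chemokine, stood at 0.67 and 2.35 and Cd3e, a T cell receptor subunit, at 4.64 and 3.36. Among 11 of B and plasma cells, with a median of -0.11 (0.01 at its highest over the alternatives), Cd79a, a B cell receptor subunit, was higher by 1.11 and Jchain, of secreted antibodies, stood at 2.56 and 1.33. Macrophage genes had 3 of 14 higher (Lyz2, Mrc1 and C1qb), with a summed level of 32.2 and 29.7. Of all genes above background on both arrays, as these 14 were, 4.9% were higher. Their median was 0.18 (-0.04 with median centring), and the members of highest signal, Cd74 and Lyz1, differed by -0.32 and 0.18. ZT16 had the lowest level of the 6 arrays for 8 of these 14. The same held for 8 of 14 T and NK cell genes and 5 of 11 B and plasma cell genes. ZT20 had the highest for none of these immune genes, and Ccl5 was at 5.22 or more on the other 4 arrays. Intestinal genes went both ways: Fabp2 stood at -3.43 and -0.41, while Spink4 was lower by 1.25.

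The genes furthest the other way belonged to none of the lists. Among genes above background on both arrays, Krt42, a keratin, stood at 0.54 and -4.59 (35.1-fold higher at ZT16), Apol10a, an apolipoprotein L, at -0.03 and -4.57 (23.2-fold) and Kcnc1, a potassium channel, at -0.34 and -4.17 (14.2-fold). Kcnh6, another potassium channel, was lower by 3.22 on one probe and differed by 0.82 on the other. Of 84 genes with several probes that were counted as lower, all probes agreed for 6 (7.14%), against 92 of 193 (47.7%) among those counted as higher. Hoxb13, a homeobox gene of the posterior body, was at least 45.2-fold higher at ZT16, and Hs3st4 at least 44.0-fold.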

How the data were processed

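Per the file headers, the arrays were read with Agilent Feature Extraction 11.0.1.1, and the deposited processed signal is an intensity on a linear scale that was background-subtracted and detrended within each array only. Other deposited columns hold flags of 0 or 1 for outlier, saturated and well-above-background spots. The authors' deposited value table holds log2 values of 30170 probes, and its steps are not given in the sources used here. It served as an alternative; its columns had medians of 8.63 (ZT16) and 8.62 (ZT20), direction and scale matched the scanner values at r of 0.9996 and 0.9998 (correlation over probes), and its centring is unknown.

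Here outlier and control spots were dropped, spots of a probe averaged, and log2 signal taken relative to the 75th percentile of each array (Python 3.11.15, limma 3.58.1 for alternatives). Of 39429 probes, 27234 (69.1%) took a RefSeq symbol of GRCm38.p6, matched by accession, and coordinates were used for promoters only. Where a probe was below background on one array, the fold is a bound against the lowest signal called above background there, or the probe's own if higher. A level lost to outlier flags on another array was left out of ranks over the 6 arrays. The number of arrays limits precision: with 1 array a side no p-value was computed, and the counting was tested on simulated data. The 2 arrays, the 36 gene lists and the comparison were chosen with earlier results of these data known. Genes named were the 3 markers, the 10 furthest either way, core clock and Reg genes, up to 8 members of each list by signal and size, and the 5 seen on 1 array only; others named were chosen after their values were seen, and a few genes that the rule names are not reported here. Alternatives were 13 planned and 1 added.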

Additional observations from a re-analysis of the deposited data

How the results depend on the processing

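List medians kept their side of 2-fold in 394 of 396 combinations of 36 lists and 11 settings, and the exceptions were both the other liver cells. Named genes did so in 1865 of 1901; in 22 the call was lost and in 14 gained. The 1 reversal was the difference of Bhlhe41, -0.25 with no filter on dim probes. The genes at least 2-fold higher at ZT20 numbered 1251 in the authors' value table, 803 with normexp, 1117 when above background on both arrays, 3871 at 1.5-fold, 668 at 4-fold and 399 among the 12504 brighter genes, a setting chosen after seeing the data. The genes at least 2-fold lower at ZT20 numbered 1313 with median centring, 469 with normexp, 1971 at 1.5-fold, 174 at 4-fold and 346 among the 12504 brighter genes. The median difference of the hepatocyte plasma proteins was 4.81 with median centring, 4.91 and 5.38 with quantile normalization of 2 and 6 arrays, 4.04 with normexp, 4.79 in the authors' value table, 4.83 when above background on both and 4.94 as the median over probes. The median difference of the hepatocyte enzymes and transporters was 3.50 with median centring, 3.62 with quantile normalization of 2 arrays, 3.00 with normexp, 3.49 in the authors' value table and 3.07 when above background on both. The median difference of the acinar enzymes was 0.56 with median centring, 0.59 with quantile normalization of 6 arrays, 0.97 with loess and 0.59 in the authors' value table. Fewer genes are counted in a stricter filter or fold by construction; the cause of the other moves was not tested. The signal over background limits 1808 genes that were above background at ZT20 alone. No paired analysis was possible because each time point had 1 array.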

Other observations

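Some transcripts that islets and liver share did not differ like albumin. These genes were chosen after their values were seen. Ttr, transthyretin, which alpha cells also express, stood at 6.25 at ZT16 and 6.20 at ZT20. Gc, the vitamin D binding protein, stood at 4.38 and 5.47. Among copies of alpha-1-antitrypsin, Serpina1d stood at -2.51 and 4.99 and Serpina1e at 0.23 at ZT16, with a difference of 6.77. ZT16 was the lowest of the 6 arrays for both, and Serpina1e was at 2.81 or more on the other 4. On the ZT4 and ZT12 arrays Serpina1e was at 4.92 and 4.94, where Alb was at -4.34 and -5.34. Igf1, a growth factor of liver and mesenchyme, differed by 2.68 on the probe used and by as little as 0.21 on another of its 4 probes.

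A few epithelial genes ran the opposite way. Agr2, a disulfide isomerase of mucous cells, stood at -0.10 at ZT16 and -2.94 at ZT20, and at 6.04 at ZT4. Gcnt3, a mucin glycosyltransferase, stood at -3.18 and -5.39, and at 0.27 at ZT4. Hoxb13, at 0.03 at ZT16, was at 0.86 at ZT4 and at -7.56 or less on the other arrays. Actg2, a smooth muscle actin, was 26.3-fold higher at ZT20 than at ZT16, yet its ZT4 level of 5.94 was higher than both. Casp4 gave differences of 0.03 and 5.01 on its 2 probes.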
